A study of Rattus norvegicus with 15 samples.

Results

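The comparison described here set prostates of a rat prostatitis model treated with low-intensity pulsed ultrasound against untreated prostates of the same model. It used 10 of the series' 15 RNA-seq libraries, 5 of each group, and 11507 of the 22436 genes in the deposited table. Those are the protein-coding nuclear genes above 0.5 FPKM (reads corrected for gene length and library depth) in at least 5 of the 10 libraries. All libraries came from prostate tissue of SD rats. Model denotes rats with chronic prostatitis and chronic pelvic pain, for which the labels give no treatment and no method of induction. LIPUS denotes rats of that model given ultrasound over 4 weeks, at an intensity that the sample titles state as 1.0 W/cm2 and the treatment field as 1.5 W/cm2, so it is unresolved. Control denotes untreated rats without the model, used here only as a background level. Replicates are numbered 6 to 10 in each group, and no age or sex is given. Nothing in the labels ties each sample to its own animal, and p-values reflect only how far these samples differ from each other, possibly for technical reasons.

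The 13 mitochondrially encoded genes were left out and every library was rescaled to its remaining (nuclear) reads, so levels are rescaled FPKM unless stated. The series' title and design concern the IL-1β, IL1R1 and MyD88 pathway and the balance of Th17 and regulatory T cells. As background, interleukin-1β binds the receptor IL1R1, which signals through the adaptor MyD88 to inflammatory genes. Th17 cells are helper T cells that secrete interleukin-17, and regulatory T cells, marked by the transcription factor FOXP3, restrain immune responses. The rat prostate has lobes with distinct secretions: the ventral lobe makes prostatein (Scgb1d2, Scgb1d4, Scgb2a1) and the dorsolateral lobes make probasin (Pbsn) and beta-microseminoprotein (Msmb).

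The markers of prostate were present in all 10 libraries, and the lobe markers did not divide evenly between the groups. Mitochondrial reads took 34.9% ± 9.18 (SD, n = 5) of Model libraries and 59.6% ± 15.7 of LIPUS libraries, with 83.3% in LIPUS_10 (two-sided exact permutation p = 0.0238, adjusted p = 0.0833 over 7 library measures). Control libraries held 4.23% ± 0.406. Nuclear reads ran from 5655932 in LIPUS_10 to 27060260 in Model_10. On a log2 scale, ventral over dorsolateral reads stood at −6.41, 7.76, −2.77, −9.25 and −5.99 in Model_6 to Model_10, and 4.46, 0.13, 0.79, 2.11 and −0.71 in LIPUS_6 to LIPUS_10 (exact permutation p = 0.167, adjusted p = 0.233). Model_7 lay above every LIPUS library on this ratio, while the other 4 Model libraries lay below every LIPUS library. Control ranged from 1.22 to 5.88. Without Model_7 the highest Model ratio was −2.77 and the lowest LIPUS ratio −0.71. The median gene had a log2 SD of 0.648 in Model and 0.628 in LIPUS, against 0.196 in Control. Counts over all genes and of most lists are therefore also given without Model_7 and LIPUS_10 (8 libraries), and with the lobe ratio as a covariate in the 10 libraries. In tissue RNA, fewer cells of a type and less RNA per cell cannot be told apart.

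**Figure D1:**
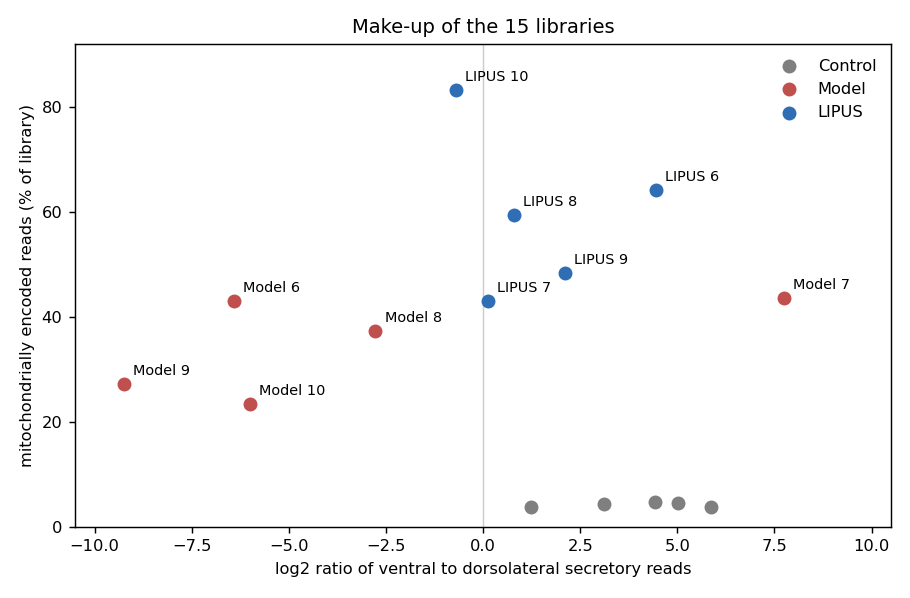
Each point is a library: the x axis gives the log2 ratio of reads from 3 ventral to 2 dorsolateral secretory genes, the y axis the percent of reads from mitochondrially encoded genes. Model_7 lies at a ratio of 7.76, far from the other Model libraries at −9.25 to −2.77, and LIPUS_10 lies at 83.3% mitochondrial reads.

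Across all 10 libraries 9 genes were called higher in LIPUS and none lower (limma on log2(rescaled FPKM + 0.1), adjusted p under 0.05, 0.0782% of 11507 genes). At an unadjusted p under 0.05 there were 1058 genes with higher values in LIPUS (9.19%) and 507 with lower values (4.41%), 13.6% in all. The median gene differed by 0.10 on the log2 scale. The added 0.1 understates the change of genes with low values. All values of one group lay above all values of the other in 187 genes with LIPUS higher (1.63%) and 102 with LIPUS lower (0.886%). Without Model_7 and LIPUS_10 the calls numbered 1658 (14.4%), 1065 higher (9.26%) and 593 lower (5.15%). With the lobe ratio as a covariate in 10 libraries they were 135 (1.17%), 133 higher (1.16%) and 2 lower (0.0174%), and with both changes together there were 0 calls by limma and 317 genes at an unadjusted p under 0.05 (2.75%). With the mitochondrial percent as a covariate limma made 0 calls, with 233 genes at an unadjusted p under 0.05 (2.02%, and 1.29% with LIPUS higher). Scaling moved the split over 8 libraries: 1131 of 2277 calls were lower with median-of-ratios factors, and 1934 of 2482 were lower with the values as deposited. All 9 genes were also called, in the same direction, in the 8 libraries and with the lobe covariate.

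The 9 genes were Selp, Cpa3, RT1-Bb, Ccna2, Degs2, Lrcol1, Fcgbpl1, Ctse and Glb1l3, and in each the lowest LIPUS library lay above the highest Model library. They had log2 changes from 2.92 to 5.50. Selp (gene 25651) encodes P-selectin, which platelets and activated vessel walls display to capture passing leukocytes. Its level was 0.581, 0, 0.263, 0.087 and 0.134 in Model_6 to Model_10 and 9.11, 7.34, 5.66, 7.60 and 13.4 in LIPUS_6 to LIPUS_10. The groups stood far apart, and Control spanned 1.06 to 23.4. The log2 change was 5.04 (SE 0.52, limma adjusted p = 0.00525), from 76 reads in Model and 1703 in LIPUS. Selp was the only one of the 9 still called whichever single library was left out, with adjusted p between 0.00231 and 0.0436.

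Cpa3 (54242), carboxypeptidase A3, is a protease stored in mast cell granules. In Model_6 to Model_10 it was at 0.826, 1.05, 0.810, 0.954 and 0.380, and in LIPUS_6 to LIPUS_10 at 7.89, 4.65, 23.0, 6.50 and 6.59. Control ranged from 8.16 to 11.9. LIPUS libraries lay below and above that range, none within it, and Model lay below both groups. The log2 change was 3.25 (SE 0.45, limma adjusted p = 0.0398). The other 4 mast cell genes tested were not called over 10 or 8 libraries or with the lobe covariate. All 5 had positive differences with a median of 1.42. At an unadjusted p under 0.05 with LIPUS higher were 2 of 5, beside 9.19% of all tested genes. With the lobe covariate 5 of 5 were, where 1381 of 11507 tested genes were at that p in either direction. The tryptase gene Tpsb2 and the receptor gene Kit, named after their values were seen, were too low to be tested.

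RT1-Bb (309622) encodes the beta chain of a rat class II molecule, which presents peptides to CD4 T cells. Its values were 0.521, 0.683, 0.319, 0.516 and 0.512 in the Model libraries in order, and 2.56, 2.62, 5.14, 5.30 and 9.21 in the LIPUS libraries. Control lay between them at 1.42 to 2.34. RT1-Bb was higher in LIPUS by 2.92 on the log2 scale (SE 0.43, limma adjusted p = 0.0398). RT1 genes have near-identical copies, so their reads may have been divided between them. Ccna2 (114494), cyclin A2, drives cells through DNA replication and into mitosis. It had 8 reads in all Model libraries together, at 0.0527, 0, 0, 0 and 0.118, and 221 reads in LIPUS, at 4.05, 1.34, 0.886, 1.17 and 3.02. Control was higher than both, at 5.42 to 11. The log2 change of 3.88 (SE 0.60, limma adjusted p = 0.0398) rests on Model values at or near 0 and so depends on the added 0.1.

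Of the other 5 genes, Fcgbpl1 and Ctse varied widely among untreated prostates as well. Fcgbpl1 (292746), a gene of the family of IgG Fc-binding mucus proteins, was at 507, 24.4, 106, 47.5 and 83.4 in Model and at 2691, 2276, 1573, 1549 and 10119 in LIPUS. Control libraries held 268, 307, 2177, 392 and 31.9. Ctse (25424), the aspartic protease cathepsin E, was at 28.2, 1.44, 2.57, 4.52 and 8.61 in Model, at 141, 95.7, 88.5, 87.7 and 344 in LIPUS, and at 14.0, 24.1, 109, 26.8 and 3.55 in Control. In both genes Model_6, LIPUS_10 and Control_8 were the highest of their groups. Tgm4, the prostate transglutaminase of the coagulating gland and dorsal prostate, was also highest in those 3 libraries, at 4371, 17794 and 9111, and lowest in Model_7, at 47.5. The log2 changes were 4.96 for Fcgbpl1 (SE 0.74) and 4.58 for Ctse (SE 0.69), with a limma adjusted p of 0.0398 each. Tgm4 itself differed by 3.52 (SE 0.97, adjusted p = 0.199), and by 4.77 with the lobe covariate (adjusted p = 0.016). Its part in these results was not tested.

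Degs2 (314438), a sphingolipid desaturase and hydroxylase, was at 0.274, 0, 0, 0 and 0.461 in Model and at 8.5, 6.89, 1.61, 10.8 and 35.5 in LIPUS, a log2 change of 5.50 (SE 0.80). Lrcol1 (100363238) was at 0.379, 0, 0, 0.395 and 0.425 in Model and at 5.36, 7.13, 3.58, 3.63 and 34.2 in LIPUS, a change of 4.77 (SE 0.74). Glb1l3 (500961), a galactosidase-like gene, was at 1.14, 1.58, 2.14, 1.09 and 1.41 in Model and at 7.00, 8.68, 9.25, 10.0 and 41.7 in LIPUS, a change of 2.97 (SE 0.46). Each had a limma adjusted p of 0.0398. LIPUS_10, the shallowest library, was the highest in all 3, and Control_8 was the highest Control library in all 3, at 6.05, 12.8 and 9.83. Leaving out any 1 library other than Model_7 ended most of the 8 calls besides Selp, with adjusted p up to 0.143.

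**Figure D2:**
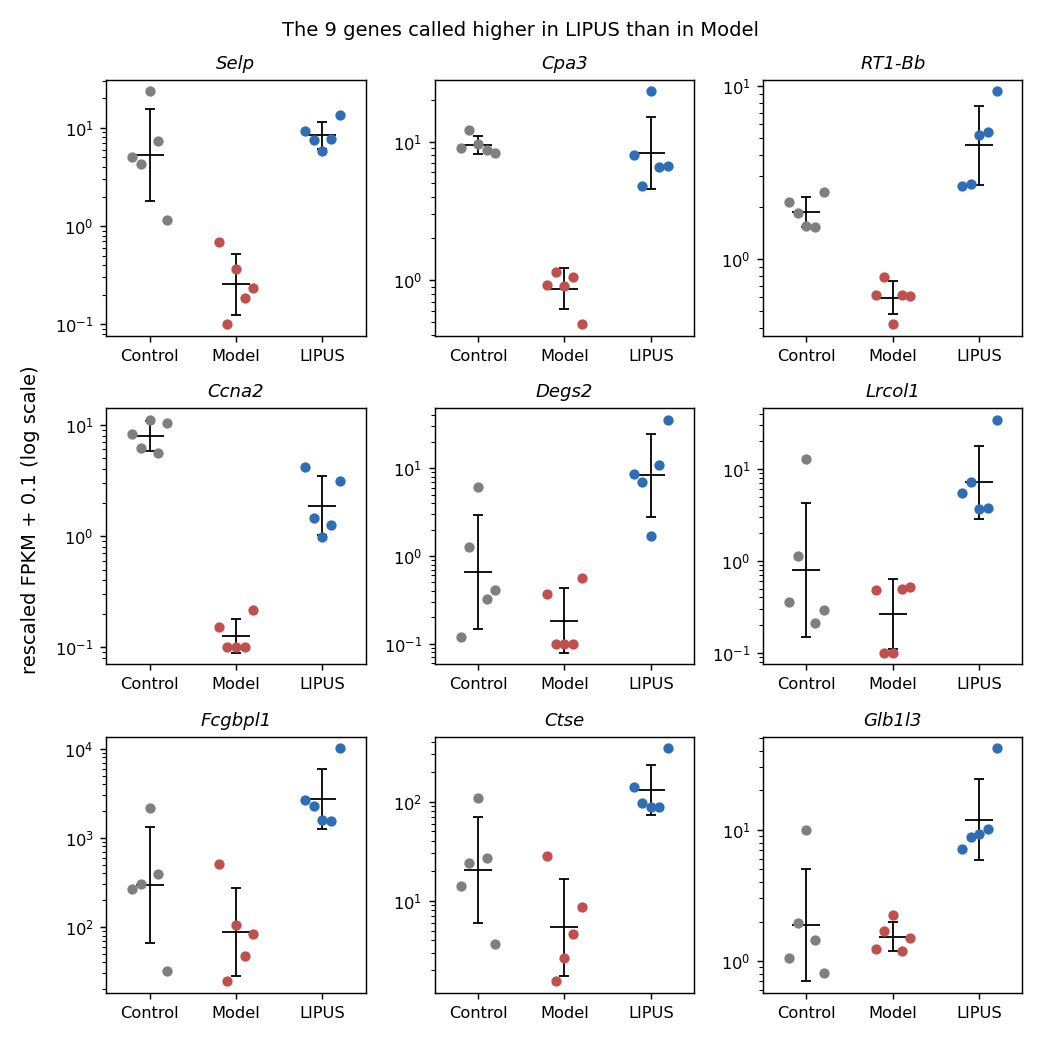
The 9 called genes, with rescaled FPKM + 0.1 on a log axis and 1 point per library; bars give the mean and SD of the log2 values (n = 5). LIPUS lies above Model without overlap in every panel, and in Selp, Cpa3, Ccna2 and RT1-Bb every Control library lies above every Model library.

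Among the genes just short of the threshold were Spcs3, Ccl6 and Atp6ap2. Spcs3, a subunit of the signal peptidase that trims secreted proteins, was at 17.5 to 46.5 in Model and 62.8 to 128 in LIPUS, a log2 difference of 1.84 (SE 0.30, limma adjusted p = 0.0537). The chemokine gene Ccl6 was at 13.6 to 33.7 in Model and 66.8 to 248 in LIPUS, a difference of 2.44 (SE 0.40, adjusted p = 0.0537). Atp6ap2, the prorenin receptor and accessory protein of the vacuolar proton pump, was at 2.79 to 6.55 and 13.6 to 37.5, a difference of 2.23 (SE 0.38, adjusted p = 0.0537). None of the 3 overlapped between the groups. All 3 were called in the 8 libraries and with the lobe covariate.

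In the lower direction limma called no gene in 10 libraries, and 507 genes were at an unadjusted p under 0.05. Genes with the smallest p are given here, a choice that itself favours little spread between replicates. Tmem186 (497863), which encodes an assembly factor of mitochondrial complex I, was at 11.3, 9.30, 13.7, 11.9 and 12.3 in Model and at 4.00, 5.67, 4.53, 3.46 and 5 in LIPUS. Control lay in between at 7.04 to 8.66. The log2 difference was −1.36 (SE 0.25, limma adjusted p = 0.0619). Nek3 (306576), a NIMA-related kinase, was at 14.9, 16.3, 26.6, 16.1 and 18.9 in Model and at 5.49, 11, 4.55, 6.63 and 4.57 in LIPUS (−1.56, SE 0.31, adjusted p = 0.0787), with Control at 4.69 to 7.01. These are the 2 genes called lower with the lobe covariate (adjusted p = 0.049 for Tmem186 and 0.048 for Nek3). Model_7 lay above every LIPUS library in both.

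Other genes picked by small p with LIPUS lower were Bhlhb9 (−1.31, limma adjusted p = 0.0968), the kinase gene Camk1d (−1.46, adjusted p = 0.115) and the arsenite methyltransferase gene As3mt (−0.94, adjusted p = 0.158). The mitoribosome release factor Mrpl58 was at 64.5 to 99.7 in Model and 31.9 to 59.2 in LIPUS (−0.92, adjusted p = 0.158). Atp5f1d, a subunit of the ATP synthase, was at 97.0 to 149 and 60.6 to 83.1 (−0.80, adjusted p = 0.163), with Control at 43.5 to 50.8. Dhtkd1, a mitochondrial dehydrogenase subunit, was at 8.64 to 15.8 and 2.54 to 8.60 (−1.49, adjusted p = 0.158). Acsl4, which activates arachidonic acid, was at 87.2 to 161 in Model, 15.2 to 68.8 in LIPUS and 28.3 to 47.6 in Control (−1.47, adjusted p = 0.163). In each of these 7 genes the groups did not overlap, and all 7 were called lower in the 8 libraries.

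Macrophage genes leaned to higher values in LIPUS. No macrophage gene was called in 10 libraries, yet 21 of 24 tested members were at an unadjusted p under 0.05, each with LIPUS higher, beside 9.19% of all tested genes. The median log2 difference was 1.70, and the highest member was Cybb, a subunit of the phagocyte oxidase, at 3.79. Leaving out single libraries gave 20 to 22 members. In the 8 libraries 14 were called higher, beside 9.26% of all tested genes. With the lobe covariate 6 were, beside 1.16%, and none was called lower in either fit. With the mitochondrial percent as a covariate 4 were at an unadjusted p under 0.05 with LIPUS higher, beside 1.29% of all tested genes. The median was then 0.83. The summed level was 335, 641, 217, 178 and 200 in Model_6 to Model_10 and 1116, 499, 889, 1014 and 1329 in LIPUS_6 to LIPUS_10. Model_7 overlapped LIPUS_7, and Control held 177 to 284. LIPUS_10 was the highest LIPUS library in 17 of the 24 genes, as it was in 31.7% of all tested genes.

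Ctss, cathepsin S, which cuts the invariant chain of class II molecules in lysosomes, had the smallest p of the list. It was at 20.6, 18.6, 9.68, 17.3 and 14.3 in Model and at 58.1, 33, 56.1, 55.8 and 100 in LIPUS (log2 difference 1.86, SE 0.32, limma adjusted p = 0.0537). Fcer1g, the signalling chain shared by Fc receptors, was at 4.84 to 18.6 in Model and 21.9 to 72.8 in LIPUS (2.33, SE 0.43, adjusted p = 0.0612). Neither gene overlapped between the groups. Csf1r, the receptor for the main macrophage growth factor, was at 2.67, 1.88, 1.33, 0.140 and 1.73 in Model and at 6.80, 2.74, 10.6, 6.63 and 27.1 in LIPUS (2.69, adjusted p = 0.174). The lysosomal marker Cd68 was at 4.53, 21.8, 4.44, 3.02 and 2.28 in Model and at 44.9, 11.7, 22.3, 28.6 and 23.0 in LIPUS (2.23, adjusted p = 0.158). Model_7 alone among Model libraries reached the LIPUS range of Cd68, whereas its Csf1r was like that of its group. The scavenger receptor Cd163 overlapped between the groups (1.62, adjusted p = 0.252).

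Complement genes followed with 12 of 21 tested members at an unadjusted p under 0.05 and LIPUS higher, beside 9.19% of all tested genes. At that p 1 (Cd59) had LIPUS lower. None was called, and their median log2 difference was 1.49. In the 8 libraries 10 were called higher, beside 9.26% of all tested genes, and 1 lower. The lobe covariate gave 6 called higher, beside 1.16% of all tested genes. With the mitochondrial covariate 3 were at that p with LIPUS higher, beside 1.29% of all tested genes, and the median was 0.89. C1qa, C1qb and C1qc are members of the macrophage list too. C1qa, a chain of the recognition molecule C1q, which macrophages make, was at 69.996, 17.6, 39.5, 31.3 and 31.0 in Model and at 117, 82.1, 132, 88.1 and 188 in LIPUS. Every LIPUS library was above every Model library, and Control lay at 17.9 to 26.6 (1.76, SE 0.36, limma adjusted p = 0.0935). C1qa was thus above Control in every LIPUS library. The summed level of the list was 675 to 885 in Model and 704 to 1216 in LIPUS, overlapping, and 1229 to 2309 in Control, above every library of both groups.

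**Figure D3:**
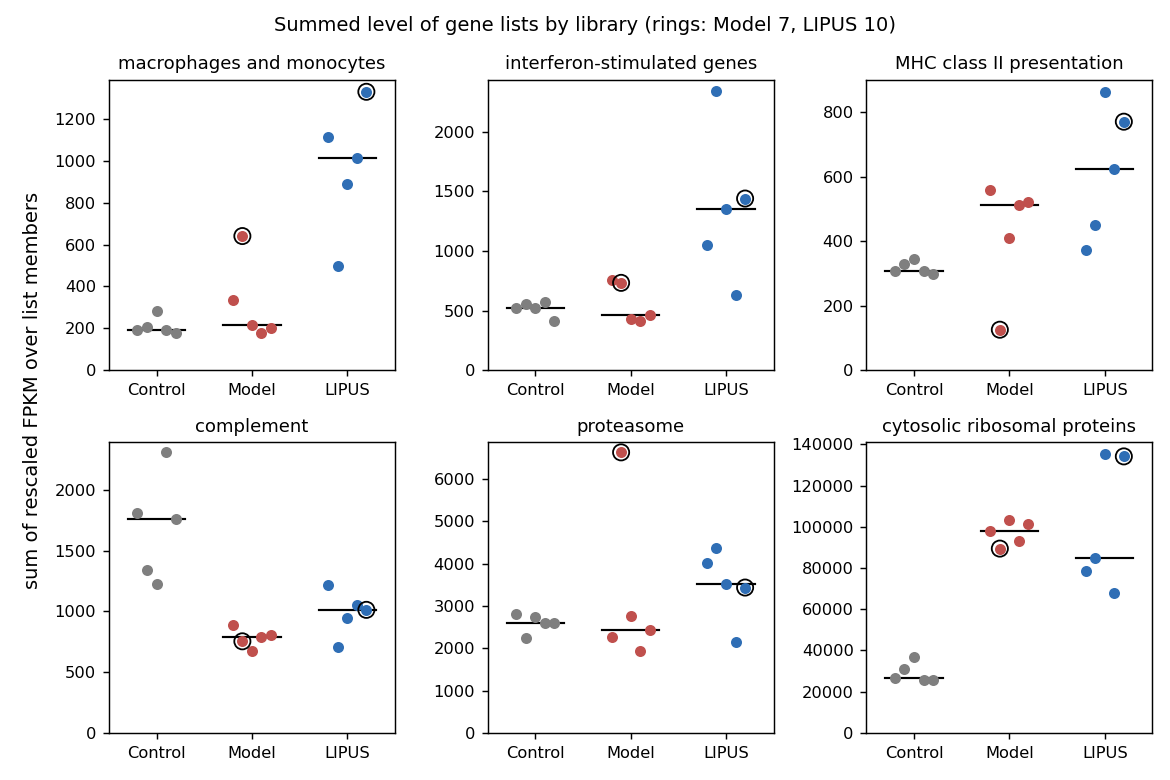
Summed rescaled FPKM of 6 gene lists, 1 point per library, with group medians as lines and rings around Model_7 and LIPUS_10. For the macrophage list LIPUS lies at 499 to 1329 and Model at 178 to 641, and for the proteasome list Model_7, at 6632, lies above all other libraries.

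Among class II presentation genes RT1-Bb was the 1 of 12 tested that was called. A further 4 were at an unadjusted p under 0.05 with LIPUS higher, beside 9.19% of all tested genes, and the median log2 difference was 1.31. Over 8 libraries 3 were called higher, beside 9.26% of all tested genes, and with the lobe covariate 6 were, beside 1.16%. Ctss is a member of this list, the macrophage list and the lysosomal list. Model_7 had the lowest Model value in 9 of the 12, as in 30.1% of all tested genes, and LIPUS_10 the highest LIPUS value in 3. Of class I presentation genes 10 of 19 were at an unadjusted p under 0.05 with LIPUS higher, beside 9.19% of all tested genes. None was called, and the median was 0.87. Called higher were 4 over 8 libraries and 3 with the lobe covariate, beside 9.26% and 1.16% of all tested genes. The mitochondrial covariate left 4 at that p with LIPUS higher, beside 1.29% of all tested genes, and a median of 0.78. The class I heavy chain RT1-A2 was at 5.27 to 13.1 in Model and 18.1 to 48.9 in LIPUS (1.50, SE 0.34, limma adjusted p = 0.122). RT1-S3 was at 3.14 to 13.9 and 13.3 to 36.5 (1.93, SE 0.40, adjusted p = 0.0968). Lysosomal proteases and membrane proteins had 9 of 26 at an unadjusted p under 0.05 with LIPUS higher, beside 9.19% of all tested genes. Their median was 0.47. In the 8 libraries 5 were called higher and 2 lower, beside 9.26% and 5.15% of all tested genes. The mitochondrial covariate left 4 at an unadjusted p under 0.05 with LIPUS higher, beside 1.29% of all tested genes, and a median of 0.40. Ctsc, which activates granule proteases, was at 1.33 to 3.65 in Model and 6.76 to 19.6 in LIPUS (1.82, SE 0.39, adjusted p = 0.0968).

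Interferon-stimulated genes were all on 1 side: in 34 of 34 tested members the log2 difference was positive, where 56.3% of all tested genes were. None was called in 10 libraries, and the median was 1.79. In 21 the unadjusted p was under 0.05 with LIPUS higher, beside 9.19% of all tested genes. In the 8 libraries 11 were called higher, beside 9.26% of all tested genes, and with the lobe covariate 2 were, beside 1.16%. With the mitochondrial covariate 8 were at that p with LIPUS higher, beside 1.29% of all tested genes, and the median was 1.39. Left out one at a time, libraries gave 17 to 24 members at that p, the fewest without LIPUS_7. The summed level overlapped, at 413 to 757 in Model and 630 to 2340 in LIPUS. LIPUS_7 was the highest LIPUS library in 26 of the 34 genes (76.5%), against 26.4% of all tested genes. Isg15, a ubiquitin-like modifier, reached 144 in LIPUS_7 and lay at 7.49 to 30.9 in the other LIPUS libraries and at 2.23 to 15.5 in Model. Usp18, the protease that removes ISG15 from proteins, showed the same with 144 in LIPUS_7, 5.40 to 24.5 in the others and 2.14 to 6.44 in Model. Isg15 and Usp18 were named after their values were seen.

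Irf7 (293624), the transcription factor that amplifies type I interferon, was the member with the smallest p, and it was highest in LIPUS_8 rather than LIPUS_7. It was at 22.7, 29.4, 19.3, 12.5 and 8.51 in Model, at 77.6, 167, 173, 45.5 and 76.8 in LIPUS and at 4.51 to 8.73 in Control. The groups did not overlap (log2 difference 2.49, SE 0.43, limma adjusted p = 0.0576; 2.76 and adjusted p = 0.0084 in 8 libraries). Bst2, the tetherin that holds virus particles at the cell surface, was at 9.68 to 34.7 in Model and 29.4 to 140 in LIPUS, with 1 overlapping pair (2.14, SE 0.43, adjusted p = 0.0856).

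Interferon acts on such genes through the interferon-stimulated response element (ISRE), searched here as GAAANNGAAA or its reverse complement TTTCNNTTTC in the 250 bases before each RefSeq start site. It was found in 18 of the 28 tested list members with a RefSeq promoter (64.3%), in 2.73% of all tested genes with one and in 3.29% of all 27457 promoters. The motif of the myeloid factor PU.1, searched as GAGGAAGT on both strands, was in 2 of 16 macrophage list members with a promoter (12.5%) and in 2.16% of tested genes. A match is a description of letters only. Parts of the promoters of Irf7, Bst2 and Gbp2 are shown, the 3 members with the motif that had the smallest p; each is on the gene's strand in build GRCr8, with the motif in capitals and 45 bases or fewer on each side.
Irf7, chr1:205800038-205800137, minus strand: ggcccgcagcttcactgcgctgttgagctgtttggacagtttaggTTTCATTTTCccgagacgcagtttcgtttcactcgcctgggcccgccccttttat
Bst2, chr16:18255038-18255137, minus strand: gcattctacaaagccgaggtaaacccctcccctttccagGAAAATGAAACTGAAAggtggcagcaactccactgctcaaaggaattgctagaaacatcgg
Gbp2, chr2:234005651-234005726, plus strand: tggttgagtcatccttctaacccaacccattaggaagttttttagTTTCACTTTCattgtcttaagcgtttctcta
In Bst2 2 copies overlap. Gbp2, a guanylate-binding GTPase, was at 2.91 to 8.68 in Model and 7.73 to 27.3 in LIPUS (log2 difference 2.001, limma adjusted p = 0.0968).

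Chemokine genes and their receptors had 10 of 23 tested members at an unadjusted p under 0.05, all with LIPUS higher. All tested genes had 9.19% there. None was called, and the median log2 difference was 1.22. In the 8 libraries 4 were called higher, beside 9.26% of all tested genes, and with the lobe covariate 4 were, beside 1.16%. With the mitochondrial covariate 8 were at that p with LIPUS higher, beside 1.29% of all tested genes, and the median was 2.07. Cxcl13, which draws B cells into follicles, was at 5.87, 0, 1.16, 3.36 and 4.33 in Model and at 16.3, 27.0, 56.2, 9.97 and 93.5 in LIPUS. It stood apart without overlap (4.19, SE 1.01, limma adjusted p = 0.145) and was called with the lobe covariate (5.87, adjusted p = 0.00087). The defining B cell marker Ms4a1 had 1 read in the 10 libraries together, and Cd79a had 7 reads in Model and 70 in LIPUS. Cd52, a short surface glycoprotein of leukocytes and male reproductive epithelium, was at 4.79 to 157 in Model, 603 to 3014 in LIPUS and 9.11 to 786 in Control (4.40, SE 0.80, adjusted p = 0.0612). Cxcl13 and Cd52 were named after their calls with the covariate were seen.

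Most T cell genes were low. Of 7 tested members none was called and 2 were at an unadjusted p under 0.05 with LIPUS higher, beside 9.19% of all tested genes. Over 8 libraries 1 was called higher, beside 9.26% of all tested genes, and 0 with the lobe covariate. Cd4, which rat macrophages also carry, was at 4.27, 4.09, 0.695, 0.893 and 1.41 in Model and at 18.8, 5.38, 18.4, 9.27 and 23.3 in LIPUS (2.84, SE 0.57, limma adjusted p = 0.0856), without overlap. The T cell receptor subunit Cd3e had 142 reads in the 10 libraries together, while the subunit Cd3g had medians of 5.004 in Model, 6.77 in LIPUS and 0.942 in Control. The kinase Lck overlapped, at 0 to 1.18 in Model and 0.582 to 3.08 in LIPUS (1.79, adjusted p = 0.338). Neutrophil markers were near the detection floor: S100a8 was at 0 to 4.17 in Model and 1.34 to 5.51 in LIPUS (1.57, adjusted p = 0.468). For counting error alone, a library with no read of a 2 kb gene could still hold up to 3, equal to between 0.0554 and 0.265 FPKM depending on the library.

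No gene reported here from the series' own question differed past the threshold in two-sided exact permutation tests adjusted over 10 genes. The receptor gene Il1r1 (25663) came closest. It was at 13.1, 1.90, 7.94, 13.4 and 10.7 in Model, at 1.76, 5.84, 2.36, 3.45 and 3.40 in LIPUS and at 4.83 to 6.22 in Control. The other 4 Model libraries lay above every LIPUS library, and Model_7 lay among the lowest. Its log2 difference was −1.30 (exact permutation p = 0.0556, adjusted p = 0.556). In limma it was −1.30 (SE 0.53, adjusted p = 0.322) over 10 libraries and −1.83 (SE 0.37, adjusted p = 0.012) without Model_7 and LIPUS_10, a call. With the lobe covariate it was −0.48 (SE 0.33, adjusted p = 0.62).

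The ligand gene Il1b (24494) was at 1.35, 0.373, 2.65, 1.88 and 0.872 in Model and at 0, 2.27, 0.758, 2.79 and 3.77 in LIPUS, fully overlapping (−0.14, exact permutation p = 0.929, adjusted p = 1). The adaptor gene Myd88 (301059) was at 6.11 to 15.2 in Model and 5.62 to 14.2 in LIPUS (0.21, exact permutation p = 0.563, adjusted p = 1). Tgfb1 (59086), a cytokine used by regulatory T cells, was at 0.820 to 6.07 and 3.49 to 6.32 (0.88, exact permutation p = 0.119, adjusted p = 0.595). Foxp3 had 105 reads in Model and 38 in LIPUS, where 2 of 5 libraries held any (−0.74, exact permutation p = 0.254, adjusted p = 0.847). Tnf had 16 and 20 reads, each from 1 library, and Il10 had 0 and 10. Il17a and Il6 had 0 reads in all 10 libraries, so the Th17 product interleukin-17A could not be measured at this depth.

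Around these, the 26 tested genes of IL-1 receptor and MyD88 signalling had no call and a median log2 difference of 0.17. At an unadjusted p under 0.05 were 6 with LIPUS higher and 2 with LIPUS lower, beside 9.19% and 4.41% of all tested genes. Over 8 libraries 2 were called higher and 1 lower, beside 9.26% and 5.15% of all tested genes, and with the lobe covariate none was. Il1rn, which encodes the antagonist that blocks IL1R1, was at 0.5, 2.78, 0.401, 0.322 and 0.408 in Model and at 5.31, 5.25, 1.76, 2.61 and 9.19 in LIPUS. Apart from Model_7, every Model value was below every LIPUS value (2.57, SE 0.61, limma adjusted p = 0.136; 2.79 and adjusted p = 0.0093 in 8 libraries; 1.90 and adjusted p = 0.17 with the lobe covariate). Tlr4, the endotoxin receptor that uses MyD88, was at 0.123 to 0.848 and 0.673 to 2.58 (1.91, adjusted p = 0.203). Th17 list genes, Il1r1 again included, had 1 of 7 in each direction at that p and regulatory T cell genes 1 of 6 higher. In the first list Batf was at 0 to 1.53 in Model and 1.46 to 7.02 in LIPUS (3.15, adjusted p = 0.176). In the second, Entpd1 was at 0.901 to 6.68 and 4.39 to 25.0 (1.35, adjusted p = 0.332). Over 8 libraries 1 Th17 list gene was called higher and 2 lower, and 1 regulatory T cell gene lower, with 0 in both with the lobe covariate. Batf and Entpd1 are made by other immune and vessel cells too.

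**Figure D4:**
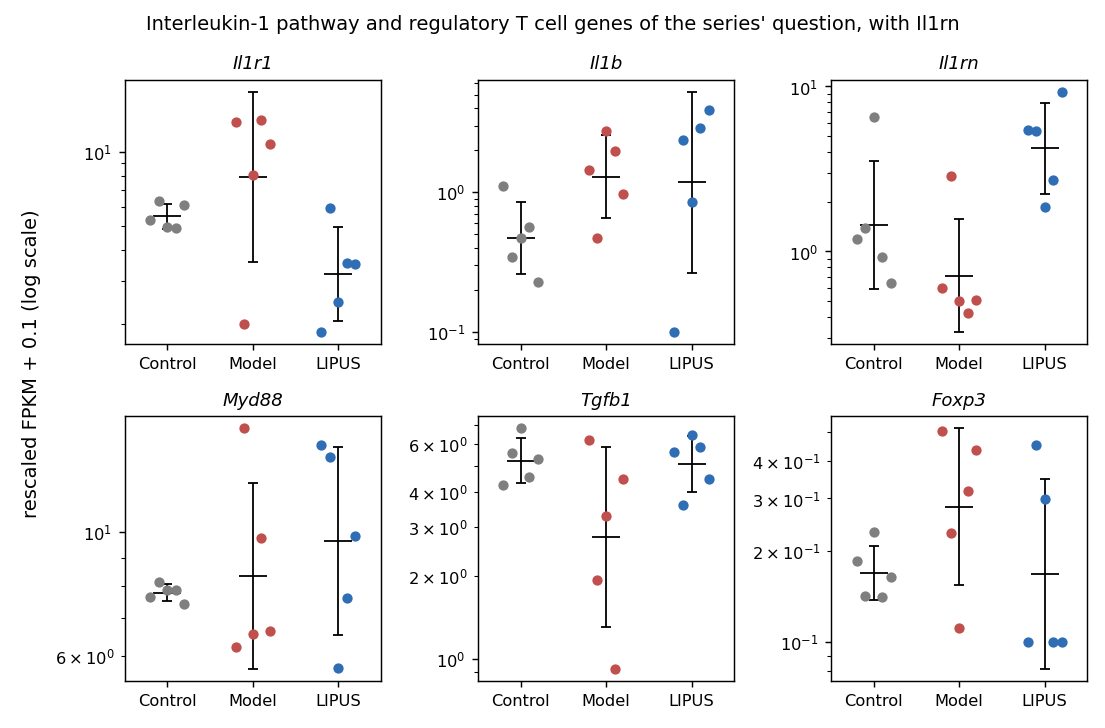
Rescaled FPKM + 0.1 on a log axis for Il1r1, Il1b, Il1rn, Myd88, Tgfb1 and Foxp3, 1 point per library, with the mean and SD of the log2 values (n = 5). In Il1r1 and Il1rn a single Model library, Model_7 at 1.90 and 2.78, lies among the LIPUS values.

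Some secretory genes of the prostate were among the largest changes over 8 libraries. Of the fixed lists, 4 of 6 ventral genes were called higher there and 1 lower, and 1 of 7 dorsolateral genes in each direction. All tested genes had 9.26% called higher and 5.15% lower. With the lobe covariate 0 ventral genes and 1 dorsolateral gene were called higher, beside 1.16% of all tested genes. These lists hold Scgb1d2, Scgb1d4, Scgb2a1, Pbsn and Msmb, which form the ratio, so the covariate fit is no separate test of them. The genes that follow were named after their calls were seen. Scgb1d2, a prostatein chain, was at 520, 41078, 10312, 75.5 and 1093 in Model and at 64555, 23010, 28255, 76581 and 8186 in LIPUS. Model_7 and Model_8 lay within the LIPUS range, the latter only above LIPUS_10, and Control held 38385 to 73012. The log2 difference was 4.09 over 10 libraries (limma adjusted p = 0.257), 5.70 over 8 (adjusted p = 0.011) and 1.77 with the lobe covariate (adjusted p = 0.35). Scgb1d2 is itself part of the ratio. Genes outside the ratio behaved alike: the androgen-dependent Andpro had 4.55, 6.22 and 2.38, spermine-binding protein (Sbp) 4.35, 5.97 and 2.01, and the kallikrein Klk1c9 4.55, 6.39 and 1.93, called in the 8 libraries alone. Klk1c9 and the Scgb genes have close copies between which reads may have been divided.

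Serpina1f, a serpin of the male tract, departed from the others. It was at 0.239, 1.18, 1.46, 0 and 0 in Model and at 24.8, 5.6, 3.71, 36.1 and 4.70 in LIPUS, without overlap, while Control stayed at 0.0696 to 1.89. Its log2 difference was 4.74 (SE 0.93, limma adjusted p = 0.0787), 5.46 over 8 libraries (adjusted p = 0.0093) and 3.59 with the lobe covariate (adjusted p = 0.049). LIPUS values were thus above both other groups.

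On the lower side of the 8-library fit stood the beta-defensins Defb50 and Defb1, the metallothionein Mt3 and Dapl1. Defb50 was at 41244, 24.5, 54251, 70816 and 75816 in Model and at 24.0, 13016, 4221, 8337 and 836 in LIPUS, with 89.1 to 11979 in Control. Its log2 difference was −5.01 over 8 libraries (limma adjusted p = 0.048), −2.99 over 10 (adjusted p = 0.56) and 0.57 with the lobe covariate (adjusted p = 0.92). Mt3, a zinc-binding protein, was at 716, 12.8, 1339, 1065 and 1524 in Model and at 5.28, 50.2, 87.9, 118 and 60.7 in LIPUS, and kept a negative sign with the covariate (−1.40, adjusted p = 0.49). Defb1, listed among ventral genes, had its high values in the libraries rich in Pbsn. Vegfc, the lymphatic growth factor, was at 3.18, 0.209, 3.77, 3.81 and 4.95 in Model and at 0, 0.568, 0, 0.302 and 0 in LIPUS (−3.63, SE 0.88, adjusted p = 0.145; −4.13 and adjusted p = 0.0084 over 8 libraries; −2.58 and adjusted p = 0.18 with the covariate). Control held 0.596 to 2.05. Over 8 libraries the lobe ratio and the treatment cannot be told apart.

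Leaving out Model_7 by itself gave 1641 calls, 535 of them lower, whereas leaving out any other single library gave 1 to 7. Of the 1658 calls over 8 libraries and the 135 with the covariate, 67 were shared, which is 4.04% of the first and 49.6% of the second, 66 of them with the same sign. Egf, which the list of growth factors holds, was among the genes with support in both. It was at 32.7, 4.51, 7.79, 4.27 and 4.70 in Model and at 38.5, 63.3, 85.5, 39.8 and 168 in LIPUS, without overlap (3.16, SE 0.58, limma adjusted p = 0.0612; adjusted p = 0.014 over 8 libraries and 0.019 with the covariate). Control held 13.2 to 46.3, the range in which Model_6 also lay.

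Model_7 was the highest Model library in most genes of some housekeeping lists and in fewer genes of others. All 31 proteasome genes had their highest Model value in Model_7, as 48.8% of all tested genes did. None was called and none was at an unadjusted p under 0.05 over 10 libraries (median log2 difference 0.29). In 8 libraries 7 were called higher, beside 9.26% of all tested genes, and with the lobe covariate 0 were (median −0.19). Psma5, a subunit of the catalytic core, was at 47.0, 156, 50.4, 30.5 and 41.7 in Model and at 65.6 to 123 in LIPUS (0.75, limma adjusted p = 0.411; 1.16 and adjusted p = 0.016 over 8 libraries). Splicing genes had Model_7 highest in 29 of 34, antioxidant genes in 20 of 27 and nuclear-encoded respiratory chain genes in 32 of 40. Glycolysis genes had it highest in 9 of 19 and lowest in 7, and cytosolic ribosomal genes highest in 19 of 48 and lowest in 19. Over all tested genes Model_7 was the lowest Model library in 30.1%. The splicing and antioxidant medians were 0.20 and 0.49 over 10 libraries, −0.07 and −0.02 with the covariate. Hsp90aa1, the stress-inducible HSP90 chaperone, was at 38.0, 315, 49.2, 14.8 and 15.7 in Model and at 68.2 to 233 in LIPUS (1.81, adjusted p = 0.312). Cytosolic ribosomal genes had 0 of 48 at an unadjusted p under 0.05 and a median of 0.08, and summed to 89434 to 103076 in Model, 68005 to 135464 in LIPUS and 25755 to 36654 in Control. Of 40 nuclear-encoded respiratory chain genes none was called and the median was 0.01. Sdhc, a membrane anchor of complex II, was at 159 to 197 in Model, 91.9 to 117 in LIPUS and 66.9 to 78.0 in Control (−0.72, SE 0.19, adjusted p = 0.174).

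Fibroblast and matrix genes had 11 of 31 at an unadjusted p under 0.05 with LIPUS higher, beside 9.19% of all tested genes, none called, and a median of 0.85 that was −0.03 with the mitochondrial covariate. Over 8 libraries 3 were called higher and 1 lower, beside 9.26% and 5.15% of all tested genes, and with the lobe covariate none was. LIPUS_10 was the highest LIPUS library in 25 of the 31, against 31.7% of all tested genes. Biglycan (Bgn), a matrix proteoglycan, was at 2.63 to 11.1 in Model, 13.2 to 74.3 in LIPUS and 27.8 to 71.8 in Control (2.12, SE 0.49, limma adjusted p = 0.125). Igfbp5 was at 0.454 to 4.66 in Model and 2.74 to 21.4 in LIPUS, with Control at 60.5 to 94.7 (2.73, adjusted p = 0.172). Endothelial genes had 2 of 11 at an unadjusted p under 0.05 with LIPUS lower, beside 4.41% of all tested genes, and a median of −0.42. The tight junction gene Cldn5 was at 4.81, 0, 3.12, 3.15 and 5.08 in Model and at 0, 1.32, 0, 0.415 and 0 in LIPUS (−3.03, adjusted p = 0.305; −3.79 and adjusted p = 0.013 over 8 libraries). Selp, also a vessel gene, was higher in these same LIPUS libraries. The endothelial marker Pecam1 was at 0.836 to 3.62 in Model and 1.27 to 2.05 in LIPUS (−0.43, adjusted p = 0.652).

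Basal epithelial genes had 2 of 10 at an unadjusted p under 0.05, both keratins with LIPUS higher, beside 9.19% of all tested genes. Krt5 was at 0.612 to 2.84 in Model, 3.05 to 7.48 in LIPUS and 9.10 to 12.3 in Control, without overlap (1.57, SE 0.46, limma adjusted p = 0.209). Krt14 was at 0.598 to 5.12 and 3.70 to 15 (2.39, SE 0.60, adjusted p = 0.158). Smooth muscle had 1 of 16, Synpo2 (1.97, adjusted p = 0.239), and a median of 0.08. That median was −0.83 over 8 libraries, with 3 at an unadjusted p under 0.05 higher and 7 lower. Over the same 8 libraries 3777 of 11507 tested genes were at that p in either direction. With the lobe covariate the smooth muscle median was 0.86, with 3 higher and 0 lower, beside 1381 of 11507 tested genes in either direction. Skeletal muscle genes had the lowest median of the lists with 5 or more tested members, −2.21 over 9. Mylpf, a fast muscle light chain, was at 14.4, 0, 0.975, 2.59 and 38.3 in Model and at 0, 0, 6.06, 0 and 0 in LIPUS (−3.60, adjusted p = 0.354), and Control spread from 0.109 to 194. Cell cycle genes had 3 of 21 at an unadjusted p under 0.05, all with LIPUS higher, Ccna2 among them, and a median of 0.43. The share over all tested genes was 9.19%. Mki67 and Top2a, further markers of dividing cells named after their values were seen, were too low to be tested, at 0 to 0.407 and 0 to 0.134 in Model and 0.101 to 1.10 and 0.143 to 1.07 in LIPUS, beside 5.16 to 9.52 and 10.6 to 20.6 in Control.

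**Figure D5:**
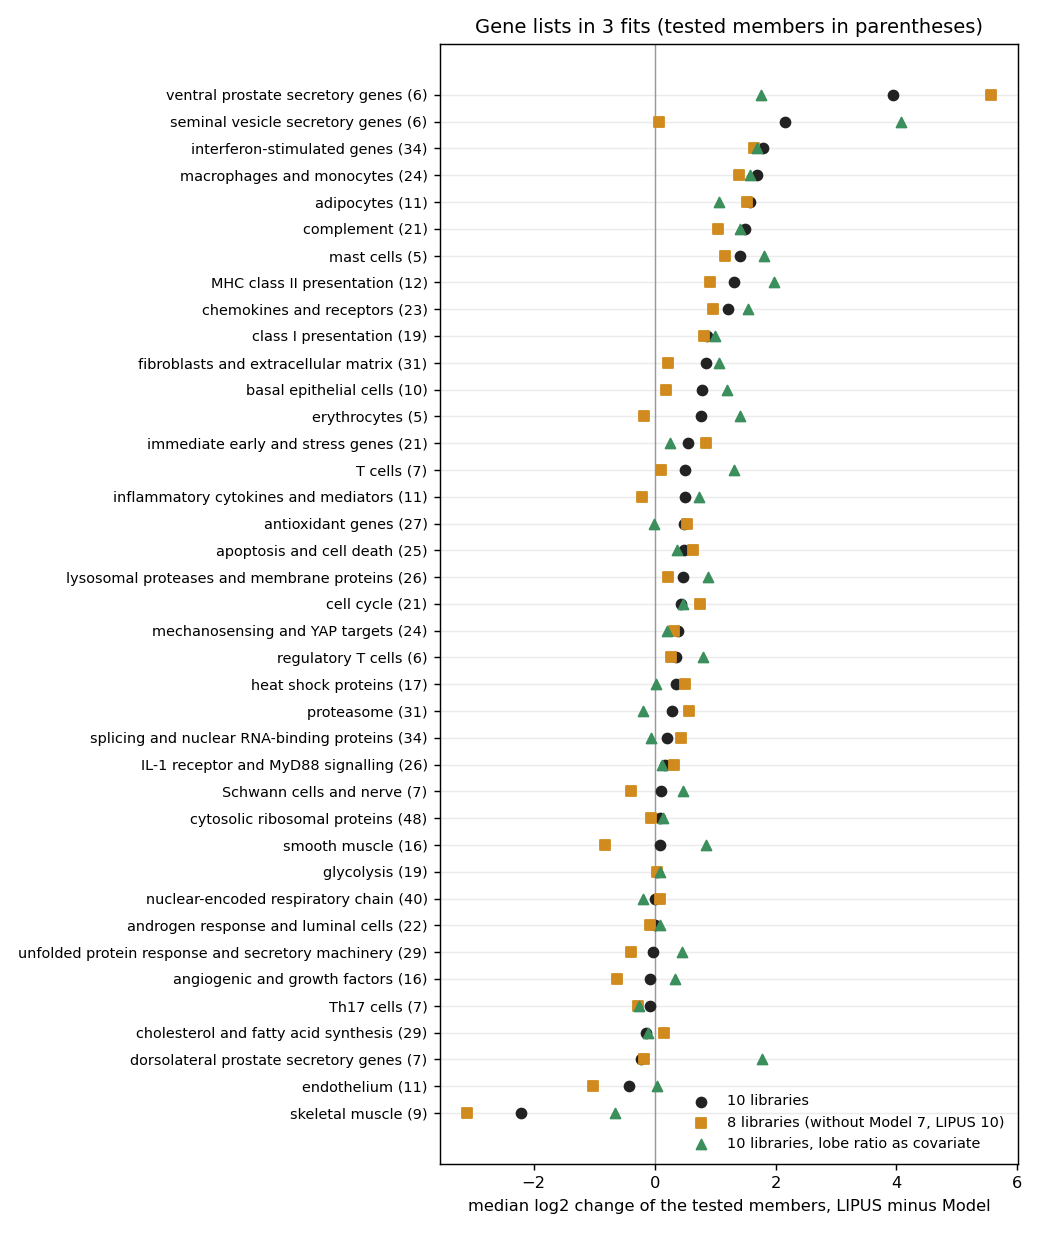
Median log2 change (LIPUS minus Model, x axis) of each gene list with at least 5 tested members (y axis), in the 10-library fit, the 8-library fit and the 10-library fit with the lobe covariate. Interferon-stimulated, macrophage, complement and antigen presentation lists lie to the right of 0 in all 3 fits. So do other lists, among them chemokines, mast cells, adipocytes and fibroblasts with matrix. Ventral secretory genes move between 1.76 and 5.57, and proteasome genes change side.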

How the data were processed

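Prostate RNA of 15 SD rat samples was sequenced, and 1 table of gene-level FPKM for all 15 libraries was used. Per the submitters' processing notes, which give no order or role, the authors' tools were fastp, HISAT2, SAMtools, HTSeq, DESeq2 and R 3.2.0 with build rn6. The deposited FPKM values were at full precision, so the reads behind them could be recovered: 100% of 241151 values above 0 were whole within 0.001. Totals ran from 29675962 to 36402094 reads. Whether counting used strand is not given in the sources used here, so overlapping and antisense genes may share reads.

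The 13 mitochondrially encoded genes were left out, each library was rescaled to its remaining reads, and log2(rescaled FPKM + 0.1) was tested with limma 3.58.1 in R 4.3.3 (moderated, with an intensity trend, Benjamini-Hochberg, call at an adjusted p under 0.05). The filter was 0.5 FPKM in at least 5 of 10 libraries. All adjusted p-values of single genes in the text are limma's unless an exact permutation test is named; the latter cannot go below 0.00794 with 5 against 5. The script was tested on simulated data. Genes were named by a fixed rule: the 10 genes of the series' question, up to 12 called genes per direction (then the smallest p), and up to 3 called or 2 uncalled members of each list; others are said to be chosen after their values were seen. Of 963 list entries 947 matched the table. The members and lists were chosen with earlier results of these data known. Some genes are members of more than 1 list, so counts of different lists are not independent. Gene numbers of 21125 table genes were in the RefSeq names table, and promoters came from RefSeq, GRCr8, for 9390 of 11507 tested genes. Alternatives changed the scaling, pseudocount, filter, libraries, covariates, weights and test. A few list members, 1 of the question genes among them, are not reported here.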

Additional observations from a re-analysis of the deposited data

Results flagged for a closer look

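In a group of 5 libraries, 20 of 222 values tested lay far from the other 4 by Dixon's criterion, where chance gives about 1 in 20. Of these, 12 were in Model_7 and 4 in LIPUS_10. In Model_7 the ventral share of nuclear reads was 9.13% and the dorsolateral share 0.0422%. Il1r1 was low there at 1.90, and so were Vegfc at 0.209, the B cell adaptor gene Blnk at 1.03, Pdia4 at 10.1, Vcl at 3.32, and Cldn5 and Cryab, both at 0. Il1rn at 2.78, Spp1 at 7.68 and Psmd14 at 102 were high in Model_7. In LIPUS_10 Glb1l3 at 41.7, Entpd1 at 24.97 and Ctsc at 19.6 were high and F2rl1 at 0.831 was low. The remaining values were low: Cpa3 at 0.380 in Model_10, Cfd at 1.58 in Model_9, Eno2 at 0.926 in LIPUS_7 and Pvalb at 0 in LIPUS_6. Gene values are rescaled FPKM.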

How the results depend on the processing

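Against 9 calls, none lower, limma gave 4 with a replicate block, 0 with a pseudocount of 0.01 (1476 genes at an unadjusted p under 0.05), 30 with 1, 1 with no filter, 4 with values as deposited and 22 (1 lower) rescaled without genes above 1% of a library. Quantile scaling gave 1 lower call. All 15 samples in the fit gave 292 (63 lower), array weights 2196 (652 lower), the lobe covariate 135 (2 lower), the mitochondrial covariate 0 and limma-voom on recovered reads 0, with 1546 genes at an unadjusted p under 0.05. An adjusted p under 0.1 gave 63 (3 lower). Without Model_7 and LIPUS_10 there were 1658 (593 lower). In these 8 libraries, by choices added after seeing the data, there were 0 with the lobe covariate, 2277 (1131 lower) with median of ratios and 2482 (1934 lower) as deposited. Leaving out single libraries gave 1 to 1641 calls, 0 to 535 lower, the highest without Model_7. The cause was not tested. The edgeR test was not run, since the deposited unit is FPKM.

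Same-numbered samples did not deviate together (correlations −0.326 to 0.225, and 1 of 5 correlated best with its own number). The labels do not say whether equal numbers share an animal, batch or day. So few correlations cannot decide it, and the block is not read as a pairing. The median of all genes was 0.10, and −0.62 as deposited.

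Leaving out single libraries moved the mitochondrial difference between 18.8 and 28.9 percentage points, nuclear reads between −10690300 and −7332500, genes with reads between −1150.85 and −468.1, the ventral share between 4.79 and 9.04, the dorsolateral share between −11.6 and −7.45, the log2 lobe ratio between 3.21 and 7.46 and the share of the top 10 genes between −8.22 and −2.36. Il1b ranged from −0.56 to 0.75 and Tnf from −0.43 to 0.60.

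Signs turned as follows on the log2 scale. With the lobe covariate Il1b was 0.68, Myd88 −0.0779, P2rx3 0.45, Defb1 0.67 and Defb50 0.57. With the mitochondrial covariate Il1b was 0.15, Svs1 −0.13, Ndrg1 −0.17, Eno2 −0.75, Mbp −0.24, Hba-a1 −0.53, Rpl27 −0.00873, Defb1 0.34 and Defb50 1.39. As deposited Myd88 was −0.57, Eno2 −0.26, Hba-a1 −0.0224, Dnajb9 −0.0599, Rpl27 −0.0530, Psma5 −0.0373 and Psmd14 −0.13. With array weights Upk1b was −0.0469 and Hba-a1 −0.0106. Over 8 libraries Blnk was −0.0450, Upk1b −0.54 and Hba-a1 −0.17. With a pseudocount of 1 Il1b was 0.14, and it was 0.14 without Model replicate 8 and 0.02 without Model replicate 9.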
